A study of Mus musculus with 16 samples.

Results

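Monocyte progenitors were taken here as cells of the lineage-negative c-Kit+ BM sort (HSPCs) that carried transcripts of the monocyte-lineage genes Csf1r, F13a1 and Ly86 beside Mpo, the myeloperoxidase gene of early myeloid cells. A member held at least 4 UMIs (unique molecular identifiers, which count captured RNA molecules) of the first 3 genes together, at least 2 of Csf1r and F13a1, at least 1 of Mpo, at most 1 of the plasmacytoid dendritic gene Siglech and at most 1 of the lymphoid gene Dntt. Only cells with more than 200 and fewer than 6000 detected genes and at most 10% of UMIs from mitochondrial genes were considered. The rule found 4281 members among 28155 kept cells of 6 HSPC libraries, in a series of 77636 cell barcodes from 16 libraries. Because the UMIs of these 6 genes chose the members, their levels are given as a description, with no test.

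The HSPC libraries came from 3 groups with 2 libraries each. WT mice carried no tumor and received no treatment (the labels call them controls). The vehicle group and the IACS-70654 group carried 2208L, a transplanted mammary tumor that lacks Trp53, and received either vehicle or IACS-70654, an oral inhibitor of the bromodomain of the acetyltransferases CBP and P300. The mice were female BALB/c, and the tumor-bearing ones were 7 to 8 weeks old when tumor pieces were placed in the mammary fat pad. The age of the WT mice is not stated. By the labels, treatment ran for 7 days with 3 days on and 2 days off the drug, while the study's text gives 6 days and 5 doses for this BM experiment. Each sample pooled the cells of 3 mice. No source states outright whether the 2 libraries of a group are separate pools or parts of 1 pool, so the p-values measure only the spread between libraries, which may be technical. The sort removed cells with CD11b, Gr-1, B220, Ter119 or CD3e on their surface and kept CD45+ c-Kit+ cells, so more mature monocytes were outside the gate.

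Monocytes arise in BM from Kit-bearing progenitors shared with neutrophils. The transcription factor IRF8 directs such progenitors toward monocytes and dendritic cells and restrains the neutrophil program, and KLF4 acts with it in monocyte formation. CSF1R, the receptor of M-CSF, carries the growth signal of the lineage, while GFI1 and C/EBPε serve the neutrophil path. CBP and P300 acetylate histone H3 at lysine 27 at active enhancers and promoters, and their bromodomains bind acetylated lysine.

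The label was compared with marker lists. The 14 monocyte progenitor markers, which include 4 of the rule's own genes (Mpo, F13a1, Ly86 and Csf1r) and so are no independent check, summed to between 6990 and 7546 CPM (UMIs of a gene scaled to the library's total) in each of the 6 libraries. In the neutrophil-primed progenitors described below the same 14 summed to 5636 to 6395 CPM. Mpo, which both classes had to carry, made up most of these sums (4408 to 5450 CPM in members), so they say little about the other markers. Of the lists of other cells, the 6 conventional dendritic markers summed to 2.25 to 4.47 CPM in members, the 6 macrophage markers to 5.60 to 11.1, the 4 plasmacytoid dendritic markers to 99.2 to 111, the 5 T or NK markers (Nkg7 among them) to 104 to 164, the 5 erythroid markers to 50.7 to 124 and the 5 basophil or mast markers to 32.6 to 126 CPM. Over all kept HSPCs these lists summed, in the same order, to 6.67 to 14.1, 7.29 to 13.8, 116 to 134, 114 to 304, 574 to 1160 and 207 to 784 CPM. The 4 B cell markers summed to 27.4 to 37.8 CPM in members and 22.6 to 37.7 over all kept HSPCs. They were higher in members in each library but the second vehicle library. The sum of the neutrophil markers was higher in members than over all kept HSPCs in each library, and moved with the groups. The 8 of them (Elane, Fcnb, Gstm1, S100a8, S100a9, Ngp, Camp and Ltf) summed to 2833 and 2686 CPM in the WT libraries, 3579 and 3636 in the vehicle libraries and 5986 and 6036 in the IACS-70654 libraries. Elane made up most of each sum (2557 to 4488 CPM), so the sums say little about the other markers. Ngp, Camp and Ltf each stood at 0.149 to 1.77 CPM. With IACS-70654 S100a8 and S100a9 rose and Fcnb fell, as given below. The part of these markers in the differences below was not tested beyond the values given there. Median UMIs per member lay between 10900 and 12602.5 in the 6 libraries, and the members' UMIs summed to between 4997960 and 19657107 per library. Between any 2 of the 6 libraries 0 cell barcodes were shared.

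The share of HSPCs that met the rule was highest in the vehicle group. In WT mice 545 of 3875 kept cells were members in the first library (14.1%, exact binomial 95% confidence interval 13 to 15.2) and 400 of 3039 in the second (13.2%, 12 to 14.4). In the vehicle group the shares were 1498 of 6571 (22.8%, 21.8 to 23.8) and 621 of 2836 (21.9%, 20.4 to 23.5). With IACS-70654 they were 783 of 7517 (10.4%, 9.73 to 11.1) and 434 of 4317 (10.1%, 9.17 to 11.0). The 3 groups did not overlap: both vehicle libraries stood above both WT libraries, which stood above both IACS-70654 libraries. The intervals cover counting error only.

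Between group means the IACS-70654 share was 12.1 percentage points below vehicle, vehicle was 8.73 points above WT, and IACS-70654 was 3.38 points below WT. Each difference had an exact 2-sided permutation p of 0.3333, the smallest that 2 libraries against 2 allow. A share depends on the other cells in the gate and on the level of the rule's own genes. Of these, Ly86 and F13a1 were lower in members with IACS-70654, as given below. How far fewer such UMIs lowered the count of members was not tested. Measured against neutrophil-primed progenitors of the same libraries (3720 cells with Mpo, Elane and the neutrophil genes Gstm1, Fcnb or Cebpe but at most 1 UMI of the 3 monocyte genes), there were 180 and 229 members per 100 such cells in WT mice, 118 and 125 in the vehicle group and 83.4 and 81.3 with IACS-70654. On that scale vehicle lay below WT, the reverse of the share of all HSPCs, while IACS-70654 stayed lowest on both. At an equal depth of 3000 UMIs a cell, with deeper cells thinned and shallower cells left out (3678 of 3875 and 2878 of 3039 cells stayed in the WT libraries, 6201 of 6571 and 2652 of 2836 in the vehicle libraries and 6764 of 7517 and 3877 of 4317 in the IACS-70654 libraries), the shares were 6.20 and 5.73% in WT mice, 10.3 and 10.1% in the vehicle group and 3.56 and 3.40% with IACS-70654.

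**Figure D1:**
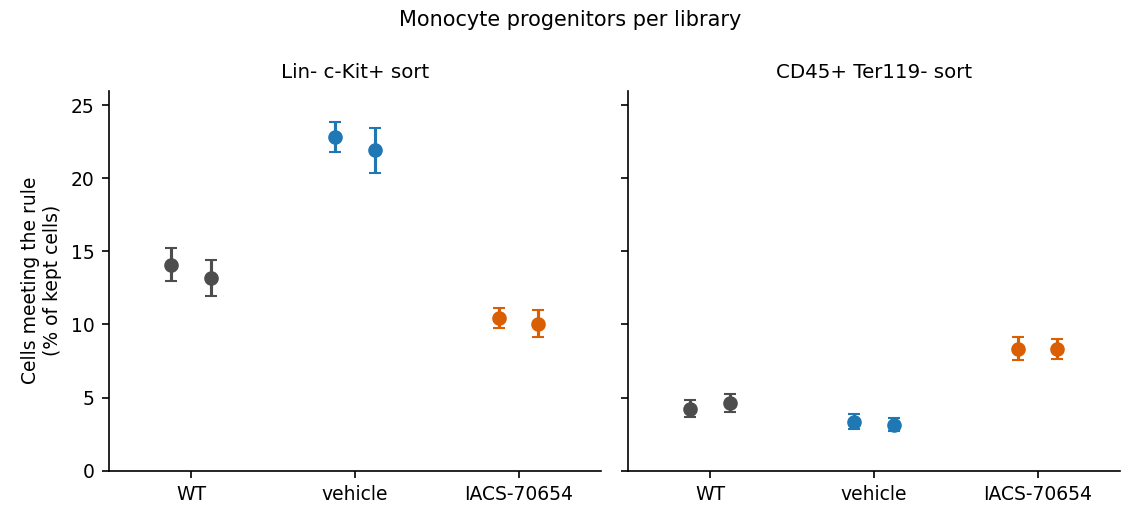
Members as a percentage of kept cells in each HSPC library, with exact binomial 95% intervals, and the same rule applied to the CD45+ Ter119- libraries. The CD45+ cells that met the rule had lower Kit than HSPC members (5.39 to 22.8 against 61.0 to 99.0 CPM). In the HSPC sort the vehicle libraries sit at 22.8 and 21.9%, above WT (14.1 and 13.2%) and IACS-70654 (10.4 and 10.1%), whereas in the CD45+ sort the IACS-70654 libraries are highest at 8.30 and 8.29%.

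Of the genes that chose the members, Ly86, which encodes the MD-1 partner of the RP105 receptor, was lowest with IACS-70654. It measured 142 and 153 CPM in the WT libraries, 138 and 145 in the vehicle libraries and 44.7 and 53.7 with IACS-70654. F13a1, the A chain of coagulation factor XIII, stood at 935 and 955, 938 and 984, and 718 and 746 CPM in the same order. Csf1r stood at 59.1 and 59.0, 64.6 and 61.0, and 49.3 and 56.9 CPM. Mpo ran the other way, with 4408 and 4475 CPM in WT mice, 4764 and 4778 with vehicle and 5450 and 5187 under IACS-70654. These levels hold within members only, since members were chosen by the summed UMIs of Csf1r, F13a1 and Ly86 and by Mpo. A member had to carry Mpo but could lack Ly86, Csf1r or F13a1.

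At the edge of the rule, cells that met every other condition numbered 42 and 35 in the WT libraries with 3 marker UMIs, just outside, and 34 and 22 with 4, just inside. The numbers were 119 and 39 outside against 109 and 44 inside in the vehicle libraries, and 165 and 110 against 135 and 72 in the IACS-70654 libraries. Irf8 was higher just inside than just outside in 5 of these 6 libraries, from 123 to 191 CPM at 3 UMIs and from 160 to 338 at 4. Within the members, Irf8 climbed with the UMIs of Csf1r, F13a1 and Ly86 taken as a part of all UMIs of the cell. Members were ranked by that part and split into 3 equal groups. From the lowest to the highest group Irf8 went from 306 to 525 CPM in the first WT library, from 299 to 583 in the first vehicle library and from 210 to 427 in the first IACS-70654 library. Elane, the neutrophil elastase gene, ran opposite, from 3597 to 1867 CPM, from 4024 to 2484 and from 5373 to 3399 in those libraries. The ranking divides by a cell's UMIs, and median UMIs differed between these groups, for example 13688 in the lowest and 9067 in the highest of the first IACS-70654 library.

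Against the neutrophil-primed progenitors, the members had higher levels of Irf8 and of other genes, as a description of classes that were chosen by expression, the neutrophil-primed one by having at most 1 UMI of the monocyte genes. Mean Irf8 was 388 CPM in members and 25.9 in neutrophil-primed cells, the lysosomal protease gene Ctss 37.4 and 2.64, and the galectin gene Lgals3 50.1 and 3.63. Apba1, which encodes an adaptor protein, stood at 168 against 9.77 CPM, and Ptprd, Nrp1, Ahnak, Itga1, Pld4 and Dglucy were the other genes of the highest ratios. Lower in members were Prg2, an eosinophil granule gene, at 8.11 against 138 CPM, the tetraspanin gene Cd63 at 57.8 against 443, and S100a9 at 186 against 1400. The neutrophil-primed class thus also held cells with eosinophil genes, whose 4 markers summed to between 18.5 and 365 CPM in its 6 libraries and to between 10.1 and 14.3 CPM in members.

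Gene by gene, the members' UMIs were summed per library and compared with edgeR's quasi-likelihood test. A gene was called when its Benjamini-Hochberg adjusted p was under 0.01 and its log2 change lay above 0.5 or below -0.5. IACS-70654 against vehicle called 732 of 12254 genes (5.97%), with 372 higher (3.04%) and 360 lower (2.94%). Vehicle against WT called 167 (1.36%), of which 113 were higher (0.922%) and 54 lower (0.441%), and called 95 and 91 without the first and the second WT library. IACS-70654 against WT called 570 (4.65%), with 334 higher (2.73%) and 236 lower (1.93%). The IACS-70654 comparisons share libraries with the vehicle comparison, so their values are set side by side and not correlated. In bulk sums, fewer cells with a transcript and less transcript per cell cannot be told apart. The gene lists below were chosen with earlier results of these data known. The share of a list that was called is therefore a description of that list only.

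**Figure D2:**
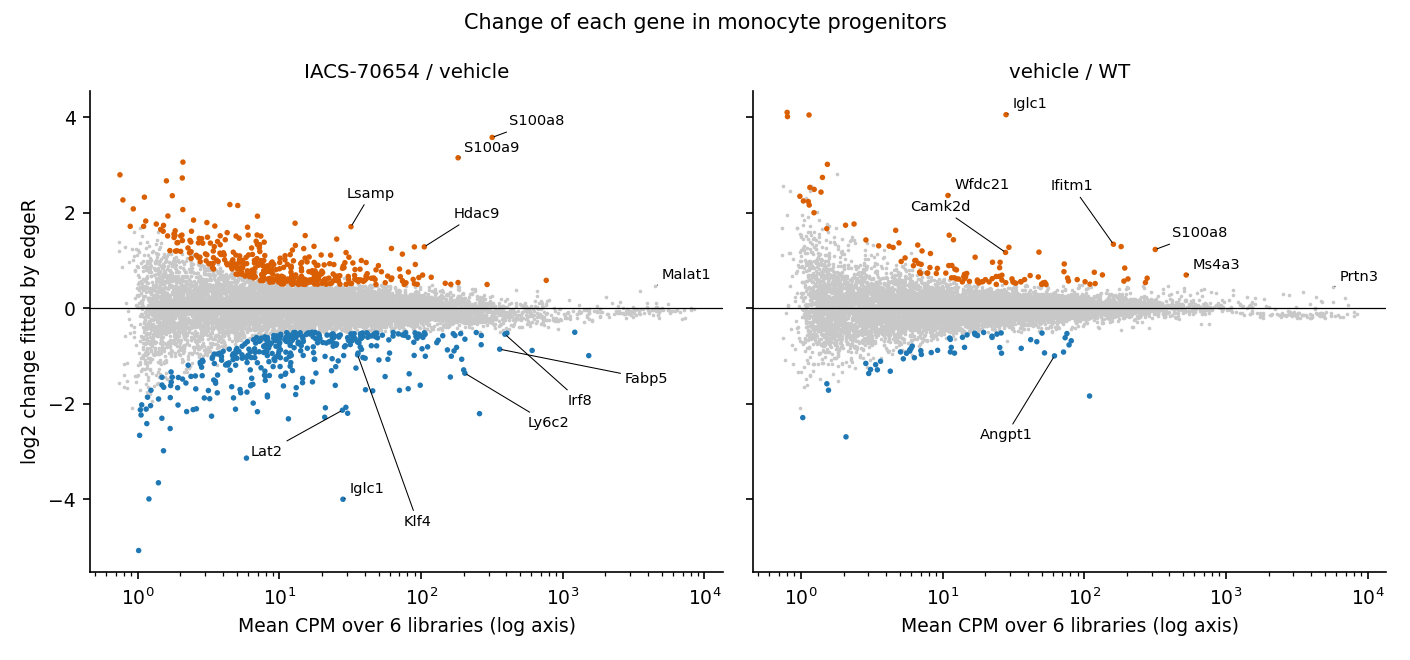
Log2 change of each gene tested, leaving out the 6 rule genes, over its mean level in members (CPM over the 6 libraries, log axis), for IACS-70654 against vehicle on the left and vehicle against WT on the right, with genes called higher in orange, called lower in blue and not called in grey. On the left S100a8 (3.58) and S100a9 (3.16) lie high and Lat2 (-2.13) and Ly6c2 (-1.36) low, and on the right Wfdc21 (2.37) and Ifitm1 (1.34) lie high and Angpt1 (-0.99) low.

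With IACS-70654, 14 of 41 tested genes of monocyte maturation were lower in the members than with vehicle, 4 were higher and 23 were not called (43.9% called against 5.97% of all genes), with a median log2 change of -0.21 beside 0.0020 over all genes. Ly6c2, which encodes the Ly6C antigen of classical monocytes, measured 224 and 199 CPM in WT mice, 285 and 287 with vehicle and 105 and 121 under IACS-70654. Both treated libraries lay below all others, a log2 change from vehicle of -1.36 ± 0.055 (SE, n = 2 libraries a group, edgeR adjusted p = 4.85e-19). Ccr2, the chemokine receptor that lets monocytes leave BM, followed the same order, at 79.8 and 82.2, 121 and 126, and 57.6 and 69.1 CPM (log2 change -0.99 ± 0.060, adjusted p = 1.65e-14). S100a4, a calcium-binding protein gene of motile cells, fell from 30.5 and 31.0 CPM to 8.99 and 11.8, a log2 change of -1.61 ± 0.12.

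The fractalkine receptor gene Cx3cr1 fell from 21.9 and 20.9 CPM with vehicle to 10.5 and 10.1 (-1.06 ± 0.12, adjusted p = 3.33e-08), and was 22.6 and 20.4 CPM in WT mice. Lgals3, which encodes galectin-3, fell by 1.08 ± 0.088 on the log2 scale and the surface glycoprotein gene Cd52 by 1.00 ± 0.065. The other called falls were Slpi, Lgals1, Tyrobp, S100a6, Pld4, Ccl9, Anxa2 and Ms4a6d, between -1.0 and -0.50. Not all maturation genes went down. Fn1, fibronectin, rose from 5.64 and 5.10 CPM to 13.7 and 10.5 (1.19 ± 0.17, adjusted p = 1.37e-06), and the lysozyme gene Lyz2 (0.54) and the LPS receptor gene Tlr4 (0.86) rose too.

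Among 34 transcription factors of myeloid fate, 4 were higher and 2 lower with IACS-70654 (17.6% called against 5.97% of all genes), with a median of 0.07. Irf8 measured 423 and 427 CPM in WT mice, 444 and 439 with vehicle and 292 and 316 under IACS-70654. The treated libraries lay below the other 4, with a log2 change from vehicle of -0.54 ± 0.037 (edgeR adjusted p = 4.53e-13). That size is close to the threshold, and without the first IACS-70654 library the change was -0.48 and not called. Klf4 stood at 36.5 and 29.0, 49.9 and 47.2, and 23 and 28.0 CPM, so the treated libraries were lowest and the vehicle libraries highest (-0.97 ± 0.10, adjusted p = 4.62e-09).

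Meis1, a homeobox factor of stem and early progenitor cells, rose from 72.5 and 63.9 CPM with vehicle to 133 and 129 (0.92 ± 0.054, adjusted p = 7.48e-15), and the WT libraries, at 76.0 and 71.6, lay with vehicle. Id2, an inhibitor of E proteins, rose from 3.49 and 3.44 CPM to 7.84 and 6.80 (1.10 ± 0.20). Gfi1, a repressor needed for neutrophil formation, went from 10.6 and 10.7 to 16.6 and 13.2 CPM (0.53 ± 0.13). Bcl6, a repressor, changed by 0.75 ± 0.22 (adjusted p = 9.39e-03). Without the first IACS-70654 library the calls of Id2 (0.97) and Gfi1 (0.31) were lost, Gfi1 also without the first vehicle library (0.52), and Bcl6 was lost without any 1 of the 4 libraries (0.62 to 0.96). Cebpb, a C/EBP factor of myeloid cells, had a change of -0.44, under the size for a call.

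**Figure D3:**
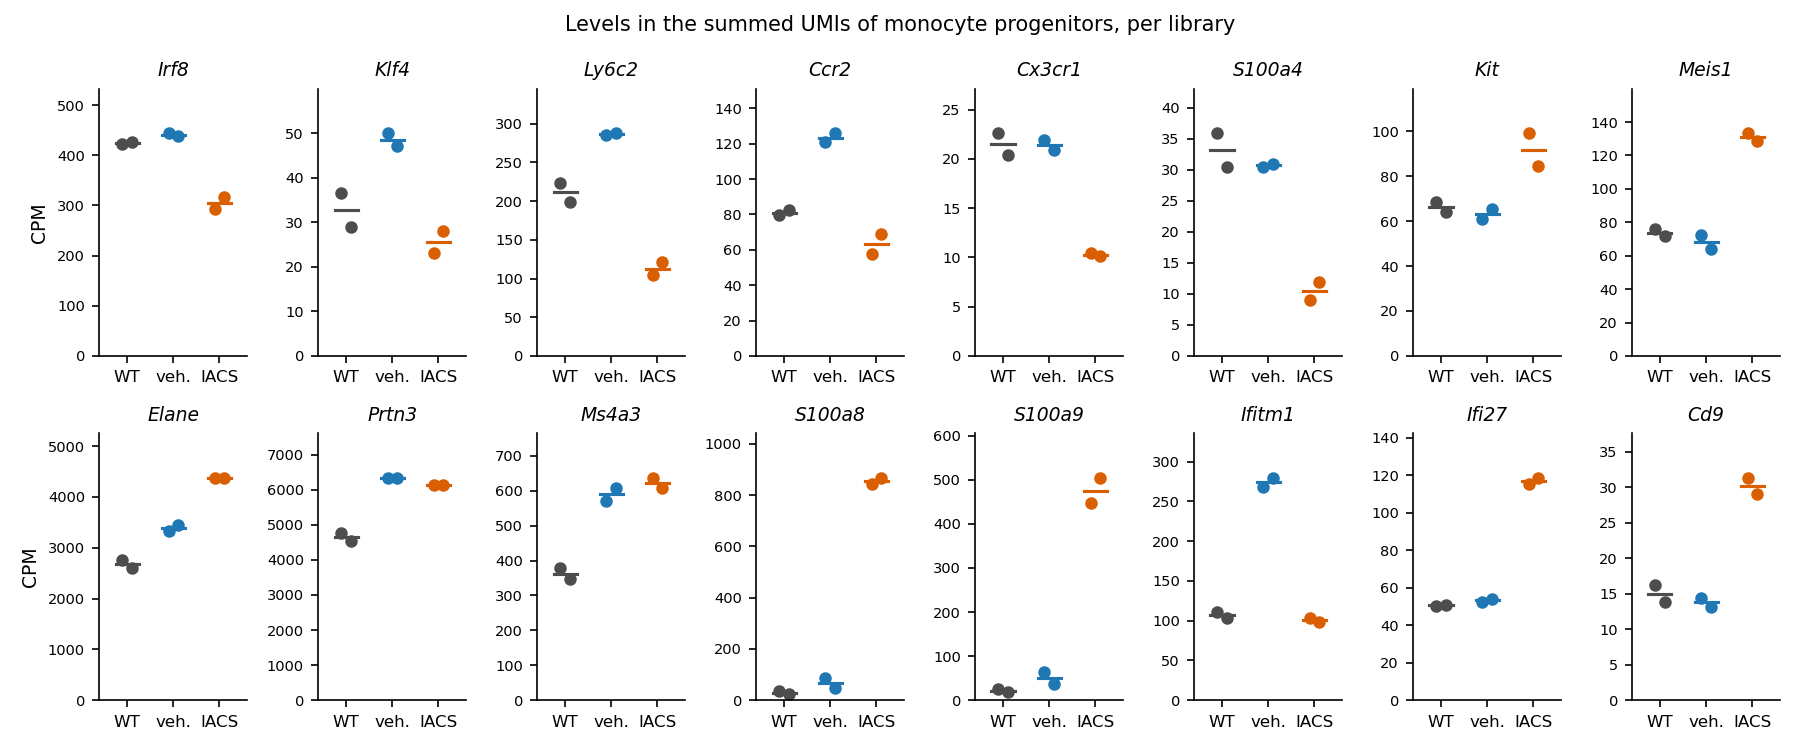
Level of 16 fate, maturation, neutrophil, interferon and adhesion genes in the members (CPM, linear axes from 0), with 1 point per library, a bar at the mean of the 2 libraries and the groups WT, vehicle (veh.) and IACS-70654 (IACS). Irf8, Klf4, Ly6c2 and Ccr2 are lowest in the 2 IACS-70654 libraries, while S100a8 reaches 843 and 868 CPM there against 24.7 to 87.2 in the other 4.

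The neutrophil and granule genes moved in both directions with IACS-70654: of 33 tested, 6 were higher and 9 lower (45.5% called against 5.97% of all genes), with a median of -0.09. S100a8, one chain of calprotectin, measured 34.8 and 24.7 CPM in WT members, 87.2 and 47.3 with vehicle and 843 and 868 under IACS-70654. The treated libraries stood far above every other library, a log2 change from vehicle of 3.58 ± 0.11 (adjusted p = 2.91e-22). S100a9, the other chain, rose by 3.16 ± 0.10, and Mmp8, the neutrophil collagenase, from 2.00 and 1.66 CPM to 7.63 and 10.3 (2.17 ± 0.23). Chil3 and Alas1 rose as well.

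Other genes of this list fell. Cst7, cystatin F, went from 128 and 140 CPM with vehicle to 43.5 in both treated libraries (-1.61 ± 0.061, adjusted p = 9.72e-20). Dmkn, dermokine, went from 51.3 and 56.1 CPM to 12.8 and 12.4, below the 21.8 and 22 of WT mice (-2.07 ± 0.11). Fcnb (-1.59), Trem3 (-0.94), Nkg7 (-0.67), Hp (-0.65), Rgcc (-0.61), Lbp (-0.60) and Igfbp4 (-0.53) completed the falls. Of the primary granule genes, Prtn3, proteinase 3, was 6328 and 6343 CPM with vehicle and 6132 and 6127 under IACS-70654, a log2 change of -0.05 that was not called, and Ms4a3 had a change of 0.08 (adjusted p = 0.10). Elane stood at 3331 and 3452 CPM with vehicle and 4374 and 4377 under IACS-70654 (0.37, under the size for a call).

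The S100a8 signal sat in few members. Cells with at least 10 S100a8 UMIs numbered 3 and 0 in WT mice, 26 (1.74%) and 6 (0.966%) with vehicle, and 115 (14.7%) and 68 (15.7%) under IACS-70654, where they held 93.2 and 94.0% of all S100a8 UMIs of the members. This limit was chosen after the values were seen, and what follows is a description. In the treated libraries these cells had Irf8 at 166 and 179 CPM against 324 and 353 in the other members, Ly86 at 10.4 and 13.9 against 51.0 and 61.9, and Elane at 8656 and 9681 against 3723 and 3395. Ly6c2 ran the other way, at 143 and 185 CPM against 101 and 111, and Klf4 was 18.0 and 27.9 against 24.6 and 28.7. Vehicle members below the limit had Irf8 at 445 and 436 CPM and Ly86, a gene of the rule, at 139 and 145 CPM, above the other treated members in both. The part of the S100a8-rich cells in the falls of the whole class was not tested. S100a8 in those other members was 70.0 and 63.6 CPM with IACS-70654 and 34.3 and 30.5 with vehicle.

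Free RNA gives UMIs to cells that do not express a gene, so erythroid-committed cells of the same libraries served as a background. That use holds only for genes that erythroid cells do not themselves express, which was not tested. At 3000 UMIs per cell, 26.7 and 27.9% of the treated members held an S100a8 UMI against 11.4 and 10.4% with vehicle and 7.71 and 7.04% in WT mice, while erythroid cells held one in 3.46 to 5.32%. Ly6c2 was found in 26.1 and 26.3% of treated members, 50.6 and 51.4% of vehicle members and 40.7 and 41.0% of WT members, and in 1.13 to 3.10% of erythroid cells. Ly6c2 was thus above the background in every library. S100a8 was above it too, but by little in WT mice (7.71 and 7.04% against 5.32 and 5.05%), a gap that was not tested. Both genes differed between groups in share as in level.

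Of 32 tested receptors of growth factors and cytokines, 3 were higher and 1 lower with IACS-70654 (12.5% called against 5.97% of all genes), with a median of 0.15. Kit, the receptor of stem cell factor by which the cells were sorted, rose from 61.0 and 65.4 CPM to 99.0 and 84.7 (0.58 ± 0.061, adjusted p = 7.57e-09), and WT members had 68.5 and 64.1 (without the first IACS-70654 library the change was 0.44 and not called). Tgfbr1, a TGF-β receptor, rose by 0.61 ± 0.089 and Il1rap, the IL-1 receptor accessory protein, by 0.53 ± 0.10, while Il21r fell by 1.07 ± 0.24. The calls of Il1rap (0.50) and Il21r (-0.76) were lost without the first IACS-70654 library, and that of Il1rap without the first vehicle library (0.43). Flt3 had 44.6 and 41.5 CPM with vehicle and 43.9 and 46.8 under IACS-70654.

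Of 46 genes of the type I interferon response that were tested, 9 were higher and 3 lower with IACS-70654 (26.1% called against 5.97%), with a median of 0.18. Among the rises, 6 were in genes under 10 CPM in every library. Oasl2 and Oas3, of the oligoadenylate synthetase family, rose by 1.94 ± 0.36 and 1.42, Rtp4 by 1.80 ± 0.26, Ddx58, the RNA sensor RIG-I, by 1.52 ± 0.23 and Irf7, a factor that drives interferon genes, by 1.47 ± 0.28. Irf7 stood at 1.95 and 1.66 CPM with vehicle and 5.12 and 5.24 under IACS-70654, below the 6.56 to 11.9 CPM of the erythroid cells, and Rtp4 and Ddx58 were likewise near the erythroid level, whereas Oasl2, at 3.45 and 2.91 CPM with treatment, was above its erythroid level, which moved as well, from 0.327 and 0 CPM with vehicle to 2.40 and 1.31. Oasl2 lost its call without the first IACS-70654 library (1.78), and Slfn5, which rose by 1.46 ± 0.28, without that library (0.88) or the first vehicle library (1.25).

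The best measured rise was Ifi27, a mitochondrial interferon-induced gene, from 52.5 and 54.2 CPM to 116 and 119 (1.14 ± 0.053, adjusted p = 1.71e-17), with 50.5 and 50.8 in WT mice and 84.0 to 125 in erythroid cells. Ifitm1, which restricts viral entry, went the other way, from 269 and 280 CPM with vehicle to 103 and 98.5 (-1.44 ± 0.049, adjusted p = 6.12e-21), just under the 112 and 103 of WT members. In erythroid cells Ifitm1 went from 136 and 127 CPM with vehicle to 41.8 and 27.8, a lower level in the same direction. Slfn2 fell by 0.77 ± 0.10 and Gbp3 by 0.73. Of the interferon-induced p200 family, 1 of 8 tested genes was called (12.5% against 5.97% of all genes), Ifi209, which fell by 0.59 ± 0.081. The family's median was 0.17, and its more abundant members Mndal (0.30 ± 0.044, adjusted p = 2.70e-06) and Ifi203 (0.35 ± 0.050) had positive changes under the size for a call.

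Of 9 called interferon genes with a RefSeq promoter, the 4 whose promoter held a match to the motif below are shown, 3 from genes called higher and 1 from a gene called lower. They are the 250 bases before the start site, from RefSeq on GRCm38.p6, read on the gene's strand, and capitals mark each match to GAAANNGAAA or its reverse complement TTTCNNTTTC, the core of the interferon-stimulated response element. Slfn5 (chr11:82951852-82952101, + strand), Oas3 (chr5:120777660-120777909, - strand) and Oas1a (chr5:120907526-120907775, - strand) were higher with IACS-70654, and Gbp3 (chr3:142559794-142560043, + strand) was lower.
Slfn5: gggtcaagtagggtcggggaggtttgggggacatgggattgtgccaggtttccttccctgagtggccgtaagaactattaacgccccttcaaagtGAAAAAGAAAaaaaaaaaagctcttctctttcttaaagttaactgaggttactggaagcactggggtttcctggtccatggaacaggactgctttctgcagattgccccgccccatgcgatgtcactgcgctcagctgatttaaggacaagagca
Oas3: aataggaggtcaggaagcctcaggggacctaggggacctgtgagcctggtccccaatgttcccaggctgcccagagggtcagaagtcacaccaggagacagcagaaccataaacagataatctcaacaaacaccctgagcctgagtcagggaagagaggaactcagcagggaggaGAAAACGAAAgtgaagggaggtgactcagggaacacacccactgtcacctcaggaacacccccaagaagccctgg
Oas1a: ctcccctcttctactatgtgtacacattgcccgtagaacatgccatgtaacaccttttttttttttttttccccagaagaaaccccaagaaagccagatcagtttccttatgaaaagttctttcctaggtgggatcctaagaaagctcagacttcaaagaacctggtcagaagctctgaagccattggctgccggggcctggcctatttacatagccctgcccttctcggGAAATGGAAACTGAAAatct
Gbp3: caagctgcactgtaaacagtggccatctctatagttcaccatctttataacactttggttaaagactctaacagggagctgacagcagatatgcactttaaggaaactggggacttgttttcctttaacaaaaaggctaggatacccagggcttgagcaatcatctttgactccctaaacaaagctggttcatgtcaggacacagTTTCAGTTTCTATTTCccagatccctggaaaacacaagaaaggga

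The run of capitals in Oas1a and in Gbp3 holds 2 overlapping matches each. RefSeq promoters were found for 38 of the 51 listed interferon genes, and 17 of these 38 (44.7%) held a match, against 978 of 32851 promoters of the table (2.98%) and 258 of 9462 promoters of tested genes (2.73%). Within the list, a match stood in 3 of 6 genes called higher, 1 of 3 called lower and 10 of 26 not called. A match describes these letters only, and genes with and without a match were found among those that rose and those that were not called.

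Antigen presentation genes were called in both directions with IACS-70654. Of 17 tested MHC class II and dendritic genes, 6 were lower and 3 higher (52.9% called against 5.97%), with a median of -0.43. Ctsh, cathepsin H, fell from 77.9 and 80.5 CPM to 30.2 and 27.8 (-1.43 ± 0.073, adjusted p = 1.99e-16), below the 56.6 and 61.0 of WT mice. H2-DMb1 and H2-DMb2, subunits of the peptide loader of class II molecules, fell by 1.42 ± 0.18 and 1.14 ± 0.20. The class II chain gene H2-Ab1 itself rose from 1.95 and 2.42 CPM to 9.62 and 8.93 (2.16 ± 0.23), while Cd74, the invariant chain of the same molecules, was 2.41 and 2.81 CPM with vehicle and 0.732 and 0.583 under IACS-70654 (-1.88 ± 0.52, adjusted p = 7.69e-03). Erythroid cells had H2-Ab1 at 3.71 and 3.22 CPM with vehicle and 7.58 and 6.38 with IACS-70654, so members lay below the erythroid level with vehicle and above it with treatment, and Cd74 at 0 to 6.97 CPM. Both H2-Ab1 and Cd74 stayed under 10 CPM in every library, and the call of Cd74 was lost without the first vehicle library (-2.02), the first IACS-70654 library (-2.09) or the second (-1.77). That of H2-DMb2 was lost without the first IACS-70654 library (-0.96).

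For MHC class I and its peptide loading, 2 of 23 tested genes were lower and none higher (8.70%, near the 5.97% of all genes), with a median of -0.20: Nlrc5, the class I transactivator, by 0.65 ± 0.15 and Tapbpl by 0.56 ± 0.15. B2m, the class I light chain, had 963 and 978 CPM with vehicle and 824 and 805 under IACS-70654 (-0.25, under the size). Of 8 tested phagocyte oxidase genes 2 fell, Ncf4 by 0.57 ± 0.051 and Ncf1 by 0.51 ± 0.054, both for cytosolic subunits, and the other 6 were not called, Rac2 among them (-0.05). Of 31 lysosomal genes 2 were higher, among them Lgmn (1.01 ± 0.23), and 1 lower, Ctsh. Without the first IACS-70654 library Nlrc5 (-0.27), Tapbpl (-0.37) and Lgmn (1.02) lost their calls, without the first vehicle library Nlrc5 (-0.62) and Lgmn (0.91), and Ncf1 (-0.49 and -0.48) and, for vehicle, Tapbpl (-0.45) lost theirs without the second vehicle or IACS-70654 library.

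Trafficking and adhesion genes had 3 higher and 5 lower of 25 (32.0% called against 5.97%). Cd9, a tetraspanin, rose from 14.5 and 13.1 CPM to 31.4 and 29.1 (1.12 ± 0.10, adjusted p = 4.45e-10), and Tspan13 rose by 0.78 ± 0.12. Selplg, the selectin ligand PSGL-1, fell by 0.71 ± 0.055 and Jaml by 0.95 ± 0.17, beside Ccr2 and Cx3cr1. Fabp5, a fatty acid carrier in the scavenger list, fell from 415 and 416 CPM to 230 and 229 (-0.85 ± 0.037, adjusted p = 2.96e-18). The chemokine genes Ccl9 (-0.66 ± 0.071) and Cxcl2 (-1.89 ± 0.35) fell, the latter from 7.59 and 3.70 CPM to 1.78 and 1.55 (not called without the first vehicle library, at -1.12). Jaml was not called without the first IACS-70654 library (-0.65).

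Of the cell cycle genes, none of 52 G2 and M phase genes and 2 of 44 S phase genes passed (4.55%, near the 5.97% of all genes), with median log2 changes of -0.01 and -0.25. In S phase Rrm2, a subunit of ribonucleotide reductase, fell from 115 in both vehicle libraries to 78.5 and 73.6 CPM (-0.59 ± 0.052), and Cdc45, of the replicative helicase, fell by 0.57 ± 0.10. Among 18 G1 cyclins and CDK inhibitors, Cdkn1a (p21) rose from 14.1 and 15.9 CPM to 28.5 and 25.4 (0.90 ± 0.11, adjusted p = 6.93e-08) and Cdkn1b (p27) by 0.52 ± 0.096. Of 36 Myc and ribosome biogenesis genes only Mxd1, an antagonist of Myc, was called (0.60 ± 0.11), while Npm1 changed by -0.18. The immediate early genes Dusp6 (1.29 ± 0.28) and Klf6 (0.60 ± 0.090) rose and Klf2 fell by 0.56 ± 0.093, of 24 tested. Without the first IACS-70654 library Mxd1 (0.50), Dusp6 (1.09) and Klf2 (-0.44) were not called, and without the second Cdc45 was not (-0.44).

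Of 29 histone deacetylase, acetyltransferase and related genes, Hdac9 alone was called (3.45%, below the 5.97% of all genes). It measured 81.5 and 85.5 CPM in WT mice, 64.0 and 74.1 with vehicle and 180 and 146 under IACS-70654 (1.29 ± 0.067, adjusted p = 3.44e-16). Of the transcripts of the drug's targets, Crebbp had 115 and 112 CPM with vehicle and 134 and 130 under IACS-70654 (0.21 ± 0.051, adjusted p = 1.94e-03), and Ep300 63.9 and 62.2 against 72.2 and 68.8 (0.16 ± 0.059, adjusted p = 0.040), neither reaching the size for a call. Malat1, a nuclear noncoding RNA, had 3883 and 3882 CPM with vehicle and 5387 and 5403 with treatment (0.47 ± 0.014, adjusted p = 7.11e-23), also under that size. Txnip, which limits glucose uptake, rose from 31.5 and 32.0 to 50.6 and 50.7 CPM (0.67 ± 0.082) and its relative Arrdc4 by 0.68 ± 0.16 (not called without the second IACS-70654 library, at 0.53). The 13 mitochondrially encoded genes had a median of -0.22 with none called, and endoplasmic reticulum chaperones a median of -0.19 with 1 of 20 called, Creld2 (-0.52 ± 0.082), whose call was lost without the second vehicle (-0.46) or the second IACS-70654 library (-0.49).

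Over all genes with at least 20 CPM on average and groups that did not overlap, the largest rises with IACS-70654 after S100a8 and S100a9 were Lsamp, H1fx, Hdac9, Dach1, Angpt1, Arhgap6, Ifi27 and Epsti1. Lsamp, a cell adhesion gene, went from 19.9 and 14 to 59.0 and 58.7 CPM (1.71 ± 0.10), and Dach1, a repressor of transcription, from 61.8 and 52.3 to 152 and 129 (1.29 ± 0.063, adjusted p = 7.71e-17). Angpt1, the ligand of the TIE2 receptor, went from 36.7 and 30.7 to 81.0 and 85.3 CPM (1.26 ± 0.080). The largest falls were in Klrb1f, a C-type lectin receptor, from 27.5 and 27.2 to 6.59 and 3.88 CPM (-2.28 ± 0.14, adjusted p = 6.10e-14), and Lat2, a signaling adaptor, from 34.6 and 36.5 to 7.63 and 8.74 (-2.13 ± 0.13). Ptprd (-2.08), Dmkn, Gpr141 (-1.73), Bex6 (-1.72), Serpinf1 (-1.70) and S100a4 were also among the 10 largest falls, and each treated library lay below every vehicle and WT library in these genes. The immunoglobulin gene Iglc1 passed the rule for largest falls as well, with 142 CPM in the first vehicle library and 4.58 to 5.92 in the other 5. There 1 cell held 2624 of 2762 UMIs, and without that library the change was -0.03.

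**Figure D4:**
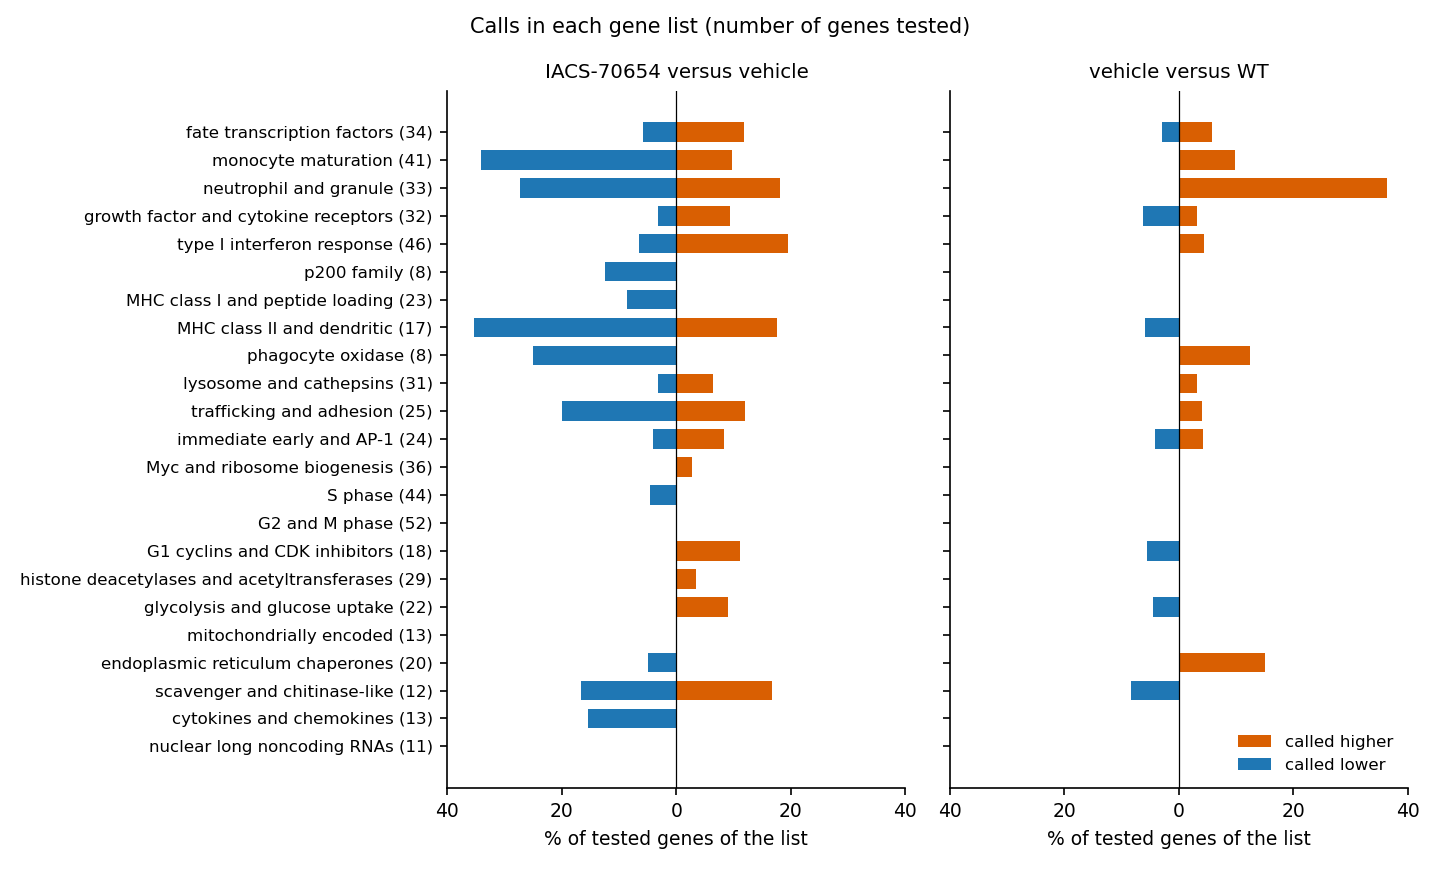
Percentage of the tested genes of each list (their number in brackets) that were called higher, in orange to the right, or lower, in blue to the left, in the members, for IACS-70654 against vehicle and for vehicle against WT. Monocyte maturation has 14 of 41 lower and 4 higher with IACS-70654, and the neutrophil and granule list has 12 of 33 higher and none lower in vehicle against WT.

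In vehicle-treated tumor-bearing mice, 12 of 33 tested neutrophil and granule genes were higher in the members than in WT mice, none were lower and 21 were not called (36.4% against 1.36% of all genes), with a median log2 change of 0.29 beside -0.00089 over all genes. Wfdc21, a WAP-domain gene of neutrophils, measured 2.44 and 4.29 CPM in WT members and 17.0 and 16.1 with vehicle (2.37 ± 0.20, adjusted p = 8.80e-11). Lcn2, lipocalin-2, rose from 5.49 and 4.08 CPM to 12.7 and 14.5 (1.44 ± 0.20). Ms4a3, a gene of granulocyte-monocyte progenitors, rose from 378 and 346 CPM to 571 and 608 (0.70 ± 0.038, adjusted p = 3.92e-15). S100a8 and S100a9 rose by 1.23 ± 0.16 and 1.29 ± 0.16. With members chosen on counts thinned to 3000 UMIs a cell, the changes were 0.39 and 0.46 and not called. That choice left fewer members, whose full UMIs were summed, so it changed the set of cells and not the depth of the summed counts. In the vehicle libraries 26 and 6 members with at least 10 S100a8 UMIs held 61.0 and 35.6% of them. Members below that limit stood at 34.3 and 30.5 CPM with vehicle and 24.2 in both WT libraries.

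The primary granule gene Prtn3 had 4757 and 4552 CPM in WT mice and 6328 and 6343 with vehicle (0.44 ± 0.014, adjusted p = 1.14e-21), under the size for a call. Of 41 monocyte maturation genes 4 were higher and none lower (9.76% against 1.36% of all genes). Ms4a6d rose by 1.07 ± 0.14, Ctsc, the protease that activates granule enzymes, by 0.77 ± 0.065, Ccr2 by 0.60 ± 0.059 and Lgals3 by 0.51 ± 0.085. Klf4 (0.56 ± 0.10, adjusted p = 1.80e-04) and Cebpb (0.51 ± 0.054) rose. Without the second WT library Klf4 (0.42), Cebpb (0.47) and Lgals3 (0.36) lost their calls, as did Cebpb without the second vehicle library (0.48), Lgals3 without the first (0.40) and Gfi1b without the first WT library (-1.29). Irf8 differed by 0.05 and was not called. Gfi1b, an erythroid and megakaryocyte repressor, fell from 6.56 and 6.33 CPM to 2.82 and 2.04 (-1.32 ± 0.25), beside 73 to 92 CPM in erythroid cells.

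Ifitm1 rose in the vehicle group from 112 and 103 CPM to 269 and 280 (1.34 ± 0.050, adjusted p = 1.49e-19), and Slfn2 rose by 0.67 ± 0.11. No other of the 46 interferon genes was called (4.35% called against 1.36% of all genes). Of 20 chaperones 3 rose (15% called), Creld2 (0.69 ± 0.088), Sdf2l1 (0.57 ± 0.049) and Hyou1 (0.53 ± 0.078). Cybb, the membrane subunit of the phagocyte oxidase, rose by 0.51 ± 0.077. Among receptors, Flt3 fell from 57.5 and 68.0 CPM to 44.6 and 41.5 (-0.52 ± 0.081), Il18r1 fell by 1.71 ± 0.42, and Il4ra rose by 0.73 ± 0.18. The cyclin gene Ccnd2 fell from 93.1 and 91.2 to 57.7 and 64.8 CPM (-0.61 ± 0.061). Among genes with at least 20 CPM on average and groups that did not overlap, the largest changes also included the rises of B4galt6 (1.18 ± 0.097) and Camk2d (1.17 ± 0.12). The largest falls there included Angpt1 (-0.99 ± 0.086), Plek (-0.94 ± 0.11), Fhit (-0.93 ± 0.090), Nedd4 (-0.91 ± 0.058) and Slc25a21 (-0.84 ± 0.15). Slc25a21 stood at 1028 to 1232 CPM in erythroid cells. Leaving out 1 library ended the call of Il18r1 for each of the 4 libraries (-2.15 to -1.26), of Il4ra for each but the second vehicle library (0.53 to 0.88), of Hyou1 (0.48) and Flt3 (-0.41 and -0.48) without the second WT or vehicle library, of Cybb (0.48 and 0.47) without the first WT or vehicle library, and of Slc25a21 without the second WT library (-0.78).

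Set beside WT, the treated members differed in some genes of the vehicle group's differences and were not called in others. Ms4a3 was 0.78 ± 0.038 and Wfdc21 1.98 ± 0.23 above WT with IACS-70654, as called genes, and B4galt6 and Camk2d were 1.68 ± 0.097 and 2.01 ± 0.12 above. Ifitm1 (-0.09), Slfn2 (-0.10), Cebpb (0.07) and Sdf2l1 (0.09) were not called against WT. Of 41 monocyte maturation genes 11 were lower and 7 higher than in WT (43.9% called against 4.65% of all genes). Ly6c2, S100a4, Cx3cr1 and Cd52 were lower, by 0.92, 1.74, 1.07 and 0.96 on the log2 scale, and Fn1 (1.55 ± 0.22), Ctsc (0.59 ± 0.071) and Ms4a6d (0.57 ± 0.16) were higher.

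Whether the members' changes differed from those of neutrophil-primed progenitors in the same libraries was tested as an interaction of class and group, at an adjusted p under 0.05 with the library as a factor. IACS-70654 against vehicle gave 909 of 12470 genes (7.29%) and vehicle against WT 106 (0.85%). Both classes were chosen by their UMIs of Csf1r, F13a1 and Ly86, and Ly86 and F13a1 were lower in treated members. Cells near the limits may therefore be classed differently between groups, and the part of this in the interaction was not tested. For Irf8 the change in members minus that in neutrophil-primed cells was -1.56 on the log2 scale (edgeR adjusted p = 9.9e-16): it fell in members, while in neutrophil-primed cells it was 17.4 and 19.4 CPM with vehicle and 36.5 and 36.7 with treatment. The difference was also negative for S100a4 (-2.03), S100a6 (-2.16), Lgals3 (-1.75), the cytokine receptor gene Il6st (-1.70) and Ly6c2 (-1.02). In neutrophil-primed cells S100a6 went from 2.87 and 2.52 to 7.50 and 7.51 CPM and Il6st from 7.18 and 7.96 to 18.9 and 15.5, S100a4 from 2.22 and 2.14 to 2.91 and 3.17 and Lgals3 from 3.16 and 2.72 to 4.50 and 5.51, all upward, whereas Ly6c2 went down there too, from 38.8 and 44.4 to 34.2 and 28.6 CPM. Erythroid cells had S100a4 at 0.878 to 2.49 CPM and Lgals3 at 1.17 to 3.23 CPM, so these genes were near that level in neutrophil-primed cells. Il6st in members went from 118 and 120 to 88.9 and 87.1 CPM. In the opposite direction S100a9 differed by 1.68, Pglyrp1 by 1.65, Dach1 by 1.58, Angpt1 by 1.47 and Lsamp by 1.45. Pglyrp1, a granule protein gene, was 23 and 25.8 CPM in vehicle members and 27.8 and 25.8 in treated ones, while in neutrophil-primed cells it was 245 and 258 and then 88.4 and 89.3. Angpt1 likewise rose in members and was 74.3 and 61.9, then 65.5 and 55.6 CPM in neutrophil-primed cells. The counts moved with single libraries: for IACS-70654 against vehicle it was 349 without the first vehicle library and 391 without the first IACS-70654 library, and for vehicle against WT 36 and 63 without the first and second vehicle library and 37 without the first WT library.

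The same rule was applied to libraries it was not made for, the 6 libraries of CD45+ Ter119- BM, where 1668 of 31191 kept cells met it. Whether those cells came from the same mice is not stated. They were not like the HSPC members: Kit was 5.39 to 22.8 CPM against 61.0 to 99.0 in HSPC members. S100a4 was 319 to 1033 against 8.99 to 35.8 CPM and Ccr2 408 to 661 against 57.6 to 126. Differences between the sorts therefore compare unlike cells. The shares ran in another order there: 4.21 and 4.60% in WT mice, 3.33 and 3.10% with vehicle and 8.30 and 8.29% under IACS-70654. IACS-70654 minus vehicle was 5.08 points in that sort against -12.1 in HSPCs, and the difference between the sorts, -17.2 points, had an exact permutation p of 0.0556 over 36 arrangements, the smallest available. Groups were rearranged within each sort, so this p refers to no group difference in either sort. It does not test whether the sorts differ in the size of a shared change. Among cells thinned to 3000 UMIs, with shallower cells left out, the CD45+ shares were 2.80 and 2.86% in WT mice, 1.76 and 1.64% with vehicle and 3.28 and 3.26% under treatment, which left 1.58 points between IACS-70654 and vehicle, 0.44 points between IACS-70654 and WT and -8.32 points between the sorts (IACS-70654 minus vehicle). Median UMIs of kept CD45+ cells ran from 4113 to 6596.5, and more cells were too shallow in WT mice (3075 of 4579 and 3003 of 4394 stayed) than with vehicle (3872 of 5112 and 4646 of 6087) or IACS-70654 (4142 of 4865 and 5208 of 6154), so the set of cells changed with the depth. In the CD45+ sort 524 of 10690 genes (4.9%) were called for IACS-70654 against vehicle and 63 (0.589%) for vehicle against WT.

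Of 10466 genes tested in both sorts, 612 were called in HSPC members and 472 in CD45+ cells for IACS-70654 against vehicle. They shared 196 in the same direction, 32.0% of the first list and 41.5% of the second, and 10 in opposite directions. For vehicle against WT 21 were shared in direction, 15.8% of 133 and 43.8% of 48. Among the shared changes of IACS-70654, Irf8 (-0.78), Klf4 (-0.72), Ly6c2 (-1.03), Ccr2 (-0.67), S100a4 (-1.41), Lgals3 (-0.84), Cst7 (-1.03), Dmkn (-2.22), Klrb1f (-3.26) and Lat2 (-2.14) fell in the CD45+ cells too, and S100a8 (1.00), S100a9 (0.70) and Ifi27 (1.66) rose. The 8 neutrophil markers summed to 15376 and 15820 CPM in these cells of WT mice, 23032 and 22347 with vehicle and 37025 and 41810 under treatment, above HSPC members in every group, and their part in the CD45+ shares and changes was not tested.

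Some genes did not carry over. Meis1 (0.21) and Hdac9 (0.13) were not called in the CD45+ cells. Ms4a3 (1.32) and Prtn3 (0.72), which were not called in HSPC members, rose there. Fn1 stood at 3.97 to 13.7 CPM in HSPC members and at 348 to 834 CPM in CD45+ cells, where it fell by 1.15 with IACS-70654, and Cdkn1a, which rose by 0.90 in HSPC members, fell by 0.58 (not called with any 1 vehicle or IACS-70654 library left out).

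**Figure D5:**
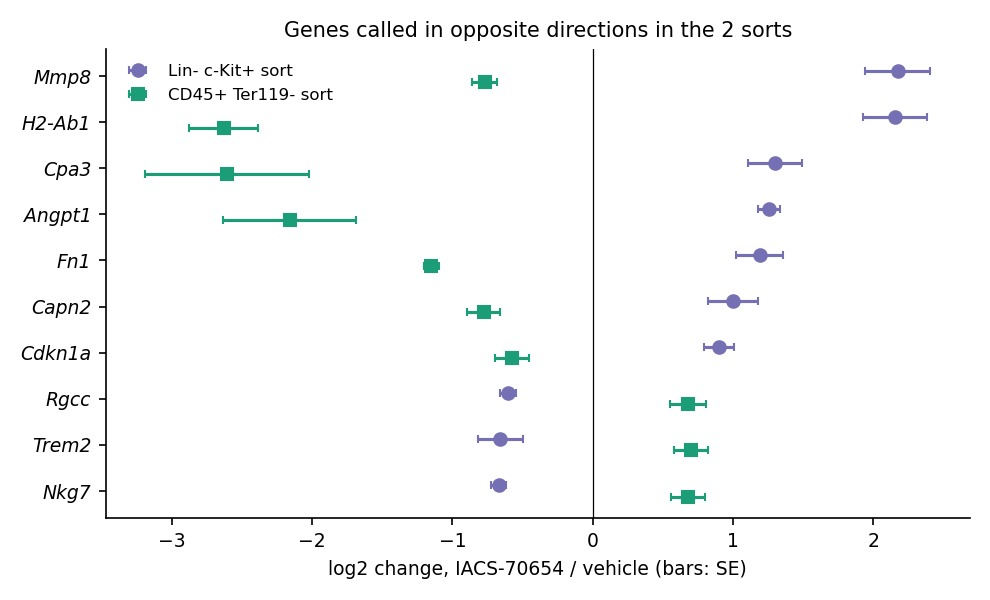
Log2 change with IACS-70654 against vehicle (x axis, bars give the SE) of the 10 genes called in opposite directions in HSPC members (circles) and in CD45+ Ter119- cells that met the same rule (squares). Mmp8, H2-Ab1, Cpa3, Angpt1, Fn1, Capn2 and Cdkn1a lie above 0 in HSPC members and below 0 in CD45+ cells, for example H2-Ab1 at 2.16 and -2.63 and Fn1 at 1.19 and -1.15, and Rgcc, Trem2 and Nkg7 lie the other way.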

How the data were processed

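Single-cell RNA was measured with 10x 3′ chemistry and CellPlex tags. The authors deposited UMI counts, not normalized, for each gene in each cell, made with Cell Ranger multi 7.2.0 per the file headers and, per the labels' processing notes, mm10 and Seurat. Here a cell had to show over 200 but under 6000 genes, with no more than 10% of its UMIs mitochondrial, and members were chosen by the rule given in the report. The members and the gene lists were chosen with earlier results of these data known. UMIs of the members were summed per library (4997960 to 19657107) and fitted with edgeR 4.0.16 (filterByExpr, TMM, glmQLFit, glmQLFTest, all 3 groups in 1 fit, Benjamini-Hochberg over all genes tested), where the study compared single cells with MAST. CPM of called genes are TMM-scaled, while CPM of rule genes, markers, groups split by the rule genes, S100a8 classes and the comparison with neutrophil-primed cells (other than Irf8 and Ly6c2) are plain. Genes named are those of the rule, up to 6 and 4 called per list and comparison with the largest changes (or the 2 highest in level), the 10 largest rises and falls (6 in vehicle against WT) at 20 CPM or more, 6 genes of the study and the 10 highest and lowest ratios between classes, and other called members of a list are given by name and value. Some genes that this rule chose are not reported here. The fit of the sorts against each other and the look at S100a8-rich and erythroid cells were added after seeing the data. Erythroid cells had at least 1 Klf1 and 3 Car1 UMIs. Scrublet marked 1.84% of the first IACS-70654 library and at most 0.14% of the others, and did not work in the first vehicle library (0 of 6571). In counts drawn at the members' depth, 200 of 12066 genes were changed by a log2 of 1, with the spread set at 0.01. The changed genes had at least 20 expected UMIs in the smallest library, so the rates do not cover genes of lower counts. For IACS-70654 against vehicle edgeR called 90% with 0 false calls, and for IACS-70654 against WT 89% with 4 (DESeq2 75.5 and 72.5%). The test of class by group called 65% with 5 false calls among 12084 genes (DESeq2 38%). The 2 libraries of a group differed by more than independent draws of UMIs would (chi-square per degree of freedom 1.26 to 1.67). UMIs come grouped in cells, so this does not show a difference beyond the sampling of cells. The alternatives were another scaling (RLE or none), DESeq2 1.42.0, no filter on low counts, the groups in pairs and a replicate block. Others were each library left out, other member rules, the rule on thinned counts, equal numbers or depth, and no doublets. Tumor libraries were not used here.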

Additional observations from a re-analysis of the deposited data

Results flagged for a closer look

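The share of cells that met the rule moved in opposite directions in the 2 BM sorts. The cells that met it were unlike in the 2 sorts, with lower Kit and higher S100a4 and Ccr2 in the CD45+ sort. IACS-70654 minus vehicle was -12.1 points in HSPCs and 5.08 points in CD45+ Ter119- cells, a difference between sorts of -17.2 points. Vehicle minus WT was 8.73 and -1.19 points, a difference of 9.92, and IACS-70654 minus WT was -3.38 and 3.89 points, a difference of -7.27. Each of these 3 differences had an exact permutation p of 0.0556, the smallest that the 36 arrangements allow, and this p refers to no group difference in either sort. With cells thinned to 3000 UMIs and shallower cells left out, a comparison added after seeing the data that changes the set of cells as well as the depth, the 3 contrasts were -6.74, 4.26 and -2.48 points in HSPCs and 1.58, -1.13 and 0.44 in CD45+ cells, and the differences -8.32, 5.39 and -2.93.

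For 10 genes the change with IACS-70654 against vehicle was called in opposite directions in HSPC members and in CD45+ cells of the same rule. The differences between the sorts, fitted with edgeR, are a description, since these genes were chosen for their opposite calls. Higher in HSPC members and lower in CD45+ cells were H2-Ab1, a class II chain gene (log2 difference between the sorts 4.80 ± 0.40), Cpa3, a mast cell protease gene (3.94 ± 0.70), Angpt1 (3.43 ± 0.48), Mmp8 (2.95 ± 0.25), Fn1 (2.35 ± 0.16), Capn2, a calpain gene (1.79 ± 0.22), and Cdkn1a (1.48 ± 0.17). Lower in HSPC members and higher in CD45+ cells were Trem2, a lipid receptor gene (-1.34 ± 0.22), Nkg7, a granule membrane gene (-1.34 ± 0.14), and Rgcc, a cell cycle regulator (-1.28 ± 0.14). With 1 vehicle or IACS-70654 library left out of either sort every gene kept its directions, and H2-Ab1, Mmp8 and Fn1 kept both calls throughout. In the CD45+ sort Angpt1 was at 32.4 CPM in the first vehicle library and 5.37 in the second, against 3.41 and 4.80 with IACS-70654, and without that first library its change was -0.39 in place of -2.16. It was not called without either IACS-70654 library there (-1.97 and -2.45). The CD45+ call was lost for Cpa3 without the second vehicle library (-1.27) or an IACS-70654 library (-2.11 and -3.63), for Capn2 without the first vehicle library (-0.66), for Cdkn1a without any 1 of the 4 (-0.66 to -0.51), for Nkg7 (0.58 to 0.74) and Rgcc (0.64 to 0.69) without any but the first IACS-70654 library, and for Trem2 without the first vehicle (0.55) or the second IACS-70654 library (0.62). In HSPC members Trem2 lost its call without the first IACS-70654 library (-0.51) or the first vehicle library (-0.52). Levels differed between the sorts too: H2-Ab1 was 1.95 to 9.62 CPM in HSPC members and 5.30 to 59.996 CPM in CD45+ cells, and Mmp8 was 1.66 to 10.3 and 70.2 to 133 CPM. Cpa3 was at 0 in the second WT library of the CD45+ sort and under 40 CPM in every library.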

How the results depend on the processing

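Calls for IACS-70654 against vehicle (732) numbered 315 with DESeq2 and 407 with members chosen on counts thinned to 3000 UMIs a cell. The full UMIs of members chosen that way were summed. Calls numbered 477 with equal numbers of members and 516 to 715 with 1 library left out. For vehicle against WT (167) they were 56, 70, 101 and, at equal summed depth, 107, and 91 to 202 with a library left out. For IACS-70654 against WT (570) they were 287 with DESeq2, 298 with members chosen on thinned counts and 387 to 630 with a library left out. Interaction counts (909 and 106) were 171 and 29 with DESeq2 and 349 to 930 and 36 to 112 with a library left out. With the replicate block the calls were 733, 159 and 563. The replicate numbers did not pair the libraries (correlations of deviations -0.155, 0.0025 and -0.035 over 6162 genes), and 2 of 113 named changes lost their call under the block. Without scaling factors, 471 genes were higher and 296 lower for IACS-70654 against vehicle (61.4% higher in place of 50.8%) and 452 and 178 against WT (71.7% in place of 58.6%), with a median shift of at most 0.063.

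The difference in share, IACS-70654 minus vehicle, was -6.74 points after thinning (shallower cells left out) and -9.67 as a share of members plus neutrophil-primed cells, where vehicle minus WT was -12.1, reversed from 8.73, and IACS-70654 minus WT -21.8. Other values that moved stand beside them: vehicle minus WT 4.26 after thinning and 7.78 at 6 or more marker UMIs, and IACS-70654 minus WT -2.48 and -4.57. With a library left out the 3 differences ran from -12.6 to -11.7, 8.28 to 9.18 and -3.83 to -2.93. Without Ly86 in the rule, a choice made after seeing the data, IACS-70654 minus vehicle was -11.6. The cause of these shifts was not tested.

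Over 20 settings the 113 named changes gave 2247 values, of which 1952 kept direction and call, 280 lost the call and 15 were reversed, all 15 in the CD45+ sort. For IACS-70654 against vehicle these were Fn1 (-1.15), Mmp8 (-0.77), Slfn5 (-0.0050), Tapbpl (0.015), H2-Ab1 (-2.63), Ncf1 (0.12), Lgmn (-0.036), Cdkn1a (-0.58), Creld2 (0.24), Trem2 (0.70), Angpt1 (-2.16) and Iglc1 (1.51), and for vehicle against WT Cybb (-0.035), Hyou1 (-0.18) and Angpt1 (0.62). Calls were lost most often in the CD45+ sort (48 of 109 changes), with members chosen on thinned counts (38 of 107) and with DESeq2 (32 of 113). Equal numbers of members ended 26 of 113 and equal summed depth 24 of 112. The 2 libraries a group and, for shares, 4 libraries a comparison limit every p, and genes near 1 CPM rest on few UMIs.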

Other observations

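Immunoglobulin transcripts stood high in 2 libraries of the members. In the first vehicle library 4 cells held 87.5% of the Igkc UMIs, and in the second WT library 1 cell held 83.1%. Without these cells, which held at least 50 immunoglobulin UMIs each, Igkc was 85.2 to 93.2 CPM in all 6 libraries, and the other 4 libraries had no such cell. Stem cell markers (Hlf, Mecom and Procr) summed to 20.9 and 25.2 CPM in WT members, 33.8 and 26.4 with vehicle and 42.8 and 36.7 under IACS-70654, so the treated libraries were highest.

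Lpl, lipoprotein lipase, changed in opposite directions in the 2 comparisons. It measured 2.75 and 2.04 CPM in WT members, 0.359 and 0.383 with vehicle and 2.30 and 4.66 under IACS-70654, a log2 change of -2.69 ± 0.52 in vehicle against WT and 3.06 ± 0.46 in IACS-70654 against vehicle by edgeR (the first was not called without the first WT library, at -2.44, or the first vehicle library, at -2.62). Angpt1 and H1fx, a linker histone gene, also fell in vehicle against WT, by 0.99 and 0.82, and rose with IACS-70654, by 1.26 and 1.45.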
